A study of Homo sapiens with 6 samples.

Results

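Peaks of the transcription factor MEIS2 were compared between its 2 CUT&Tag libraries from the MYCN-amplified human neuroblastoma line SK-N-BE(2), an established cell line. Every peak on chromosomes 1 to 22 and X that the authors called against IgG was taken: 9595 peaks of MEIS2 replicate 1 and 13871 of MEIS2 replicate 2, together 23466 of the 118064 peaks in the 5 lists of the series. A peak counted as shared where it overlapped a peak of the other library by at least 1 bp. The series also held HAND2 and TCF4 libraries, and an IgG library that served as the control. Both MEIS2 libraries carried the same labels for line, cell type and MEIS2 antibody (Santa Cruz), and the labels gave no treatment, genotype change or time.

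All 13876 peak identifiers that the authors deposited for replicate 2 carried the word Flag, and 0 identifiers of replicate 1 did. Flag is the name of a common epitope tag, and the labels mention no tagged protein, so what the word refers to is not known here and its part in any difference was not tested. Nothing in the labels says that the libraries came from separate cultures. With 1 library on each side there is no spread between samples to test against, so the comparison rests on counts and shares, with exact 95% intervals that cover counting error only. Peak positions do not show the expression of markers that define a cell type, and the amplified MYCN locus, described further on, is the feature of the line that the lists can show.

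MEIS2 is a homeodomain protein of the TALE class, whose members carry an extended loop in the DNA-binding domain. It pairs with PBX proteins and with other homeodomain and bHLH factors, and the letters TGACAG mark the sites that MEIS proteins prefer. CUT&Tag brings a transposase to the antibody on the bound protein, and sequencing adapters are inserted into the DNA nearby.

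The letters of 8 promoter stretches are examples of gene starts that the lists held in common or held apart. All 8 stretches were chosen for holding the letters shown in capitals, so they do not show how common these letters are. Each is the 120 bases around the first match within the 250 bases before a gene start, read along the strand of the gene from the RefSeq promoter table of GRCh38.p14. The 6 below hold TGACAG or its reverse complement CTGTCA, in capitals, and were taken from the promoters of highest fold that hold these letters. Peaks of both libraries covered the promoters of OGT (chrX:71532854-71532973, plus strand), the enzyme that adds N-acetylglucosamine to nuclear proteins, and of a start inside ELAVL4 (chr1:50109708-50109827, plus strand), a neuronal RNA-binding protein.
OGT: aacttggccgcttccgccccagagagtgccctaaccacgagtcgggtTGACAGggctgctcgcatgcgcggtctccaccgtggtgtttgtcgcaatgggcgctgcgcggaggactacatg
ELAVL4: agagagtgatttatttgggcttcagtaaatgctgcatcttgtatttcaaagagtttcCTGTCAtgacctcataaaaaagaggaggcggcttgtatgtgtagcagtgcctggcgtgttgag
Peaks of replicate 1 alone covered those of RAB40C (chr16:589816-589935, plus strand), a small GTPase, and HNRNPC (chr14:21269573-21269692, minus strand), a nuclear RNA-binding protein.
RAB40C: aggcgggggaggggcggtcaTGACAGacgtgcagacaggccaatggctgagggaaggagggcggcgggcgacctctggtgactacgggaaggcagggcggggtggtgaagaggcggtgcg
HNRNPC: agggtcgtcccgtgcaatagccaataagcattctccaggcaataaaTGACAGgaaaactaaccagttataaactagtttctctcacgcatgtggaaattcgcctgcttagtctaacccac
Peaks of replicate 2 alone covered those of TM4SF4 (chr3:149474447-149474566, plus strand), a tetraspan membrane protein, and of a start inside CALD1 (chr7:134779387-134779506, plus strand), an actin-binding protein.
TM4SF4: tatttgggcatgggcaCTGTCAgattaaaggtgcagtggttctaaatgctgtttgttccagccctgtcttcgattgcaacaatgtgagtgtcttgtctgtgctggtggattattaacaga
CALD1: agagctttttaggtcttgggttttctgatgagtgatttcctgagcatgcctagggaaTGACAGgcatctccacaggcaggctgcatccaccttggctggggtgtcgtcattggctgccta

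Replication-dependent histone genes were, of the 12 gene lists described here, the one both libraries reached most often. The stretches of H2BC14 (chr6:27814772-27814891, plus strand) and H3C6 (chr6:26223928-26224047, plus strand) hold CCAAT or its reverse complement ATTGG in capitals. CCAAT was added to the search after the histone genes had been seen.
H2BC14: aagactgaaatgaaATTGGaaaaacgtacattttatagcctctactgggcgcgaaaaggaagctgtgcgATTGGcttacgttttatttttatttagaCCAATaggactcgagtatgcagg
H3C6: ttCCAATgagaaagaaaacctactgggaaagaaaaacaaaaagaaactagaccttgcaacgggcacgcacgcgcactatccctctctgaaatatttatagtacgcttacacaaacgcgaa

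The libraries differed in depth and in where their peaks lay relative to the control. Fragment pile-up at the summit, recovered from the fold and p of each peak, had a median of 22 (quartiles 14 to 34) in replicate 1 and 13 (10 to 18) in replicate 2. Depth relative to the IgG library was 0.248 for replicate 1 and 0.368 for replicate 2. The background at a summit is given below in IgG fragments, and its lowest value in a list, the genome-wide background, was 2.09 in replicate 1 and 2.08 in replicate 2. At that lowest value stood 1011 peaks of replicate 1 (10.5%) and 7997 of replicate 2 (57.7%). The fold is the authors' ratio of pile-up to background with 1 added to each. It depends on depth and background and is therefore used to rank and describe peaks within a list. Where folds of both lists stand side by side, their gap does not measure a difference in binding.

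A minority of peaks was shared. Of replicate 1 peaks 2360 (24.6%, interval 23.7 to 25.5%) had a partner, and of replicate 2 peaks 2332 (16.8%, 16.2 to 17.4%). Merged, these made 2311 regions with a median width of 1153 bp, of which 2243 held 1 peak of each library. Replicate 1 had 7235 peaks of its own and replicate 2 had 11539. Only 1 interval was identical in both lists, so neither list is a copy of the other.

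**Figure D1:**
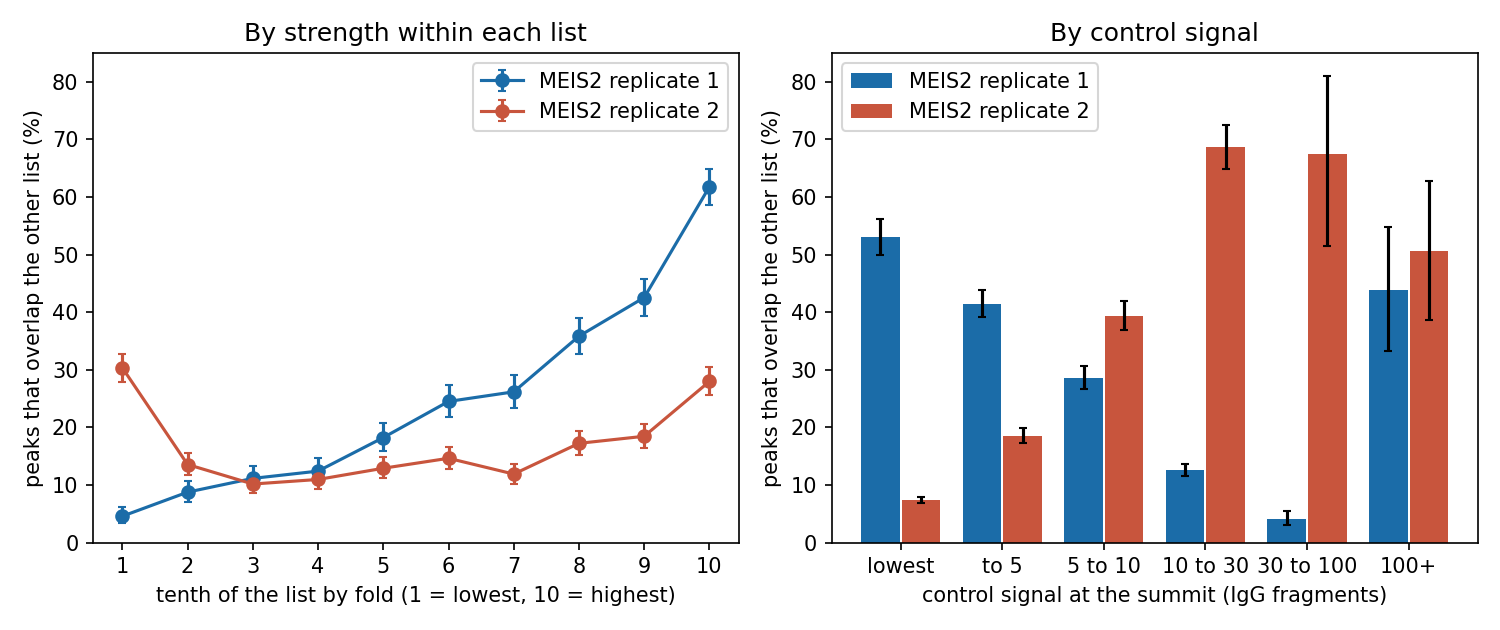
Share of peaks with a partner in the other MEIS2 library (%), by fold in 10 bins of equal size within each list and by IgG fragments at the summit, with exact 95% intervals as bars. In replicate 1 the share runs from 4.58% in the bin of lowest fold to 61.8% in the highest, whereas in replicate 2 it is 30.3% in the lowest bin and 28.0% in the highest.

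Strength went with sharing in replicate 1 and much less so in replicate 2. Shared peaks of replicate 1 had a median fold of 8.38 (quartiles 6.04 to 12.4), against 5.33 (4.05 to 7.16) for its other peaks. In replicate 2 the medians were 6.80 for shared peaks and 6.33 for the others. The plot of sharing by fold shows a steady climb over the 10 bins of replicate 1, and in replicate 2 a range of 10.2 to 18.5% in the 8 middle bins with higher values at both extremes. Shared peaks were also wider, with a median of 729 bp against 658 bp in replicate 1 and 845.5 bp against 634 bp in replicate 2.

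The strongest peaks of each list were mostly not among the strongest of the other. Of the 100 strongest peaks of each list, 12 of replicate 1 and 12 of replicate 2 overlapped the 100 strongest of the other. Anywhere in the other list, 83 of these replicate 1 peaks and 50 of these replicate 2 peaks had a partner. Among the 500 strongest, the counts with a partner anywhere were 338 for replicate 1 and 178 for replicate 2.

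Sharing by background ran in opposite directions up to 100 IgG fragments. In replicate 1, 53.0% of peaks at the lowest background were shared, and 4.09% of those at 30 to 100 IgG fragments. In replicate 2 the shares were 7.40% at the lowest background and 67.4% at 30 to 100 IgG fragments, the last over 43 peaks only. Above 100, where most peaks lie around MYCN, the shares were 43.8% in replicate 1 and 50.7% in replicate 2. The same reversal appeared with gene density. Where 0 to 3 genes lay within 500 kb, 38.1% of replicate 1 peaks and 13.3% of replicate 2 peaks were shared, and where 32 or more lay there the shares were 9.63% for replicate 1 and 39.9% for replicate 2. Background and gene density move together with these shares, and their part in them was not tested.

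The pile-up needed for a call in the other library could be set beside each peak, since the control is known. Peaks without a partner had the lower end of their counting interval above the fold needed in the other library for 62.6% of 7235 peaks in replicate 1 (61.5 to 63.7%) and for 42.4% of 11539 in replicate 2. Shared peaks, which the other library did hold, gave 75.8% of 2360 in replicate 1 and 59.0% of 2332 in replicate 2. All these peaks had passed the threshold of their own list, so their folds are high by selection. A fold of one library was also set against a limit of the other, although fold depends on depth. The part of depth in the missing partners was not tested.

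Within the 2311 shared regions the ranks of fold were weakly related. Spearman's rho was 0.256 and Pearson's r of log2 fold 0.311 across regions, which share their libraries and control and are not replicates. The 10% of highest fold in each list met in 170 regions, while 420 regions were among the top 10% of replicate 1 alone and 233 among that of replicate 2 alone. Summits lay a median of 166 bp apart (quartiles 71 to 331), 1320 regions (57.1%) within 200 bp, and 25 at the same base.

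A peak was placed at a gene end where its summit lay within 1 kb of either boundary of a protein-coding gene. The 5 regions strongest in both lists all lay away from gene ends. The first, at chr2:67560248-67562410, had a fold of 48.1 (rank 12) in replicate 1 and 55.5 (rank 5) in replicate 2, and lay 149456 bp from ETAA1, a replication-stress protein. The region at chr5:125483854-125485936 had 45.5 in replicate 1 and 73.7 in replicate 2, the highest fold of that list, and lay 736354 bp from ZNF608, a zinc finger gene. A region inside FER1L6 on chromosome 8 had 48.7 in replicate 1 and 39.5 in replicate 2, and one 255717 bp from TRIQK on the same chromosome had 60.3 in replicate 1 and 38.4 in replicate 2. The last, 38359 bp from MCHR1, a receptor for melanin-concentrating hormone, had 38.0 in replicate 1 and 36.7 in replicate 2. All 5 ranked within the first 50 peaks of both lists.

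The strongest peaks without a partner differed in kind. In replicate 1 they lay in JDP2, a bZIP repressor (44.8), at YJU2, a splicing factor (35.8), at TCF3, an E protein (34.8), 24168 bp from ECRG4 (33.8) and at RAB40C (32.7), and 3 of these 5 lay within 1 kb of a gene end. The summit pile-ups at TCF3 and RAB40C were 430 and 598 fragments, where 35 and 48 would have been needed for a call in replicate 2. In replicate 2 they lay in TRPS1, a GATA-type repressor (52.1), in DOCK2 (52.1), 248185 bp from ETS1 (51.6), 223198 bp from DKK1, a WNT inhibitor (51.0), and 89002 bp from LMBRD1 (50.4). All 5 stood at the lowest background of 2.08 IgG fragments with pile-ups of 88 to 91, and a pile-up of 5 would have been enough for a call in replicate 1.

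Gene ends separated the libraries clearly. A gene end held the summits of 1807 replicate 1 peaks (18.8%, 18.1 to 19.6%) and of 324 replicate 2 peaks (2.34%, 2.09 to 2.60%), so the intervals stand far apart. The excess sat in the unshared peaks of replicate 1, 1680 of which were at a gene end (23.2%, 22.3 to 24.2%), against 199 of the unshared peaks of replicate 2 (1.72%, 1.49 to 1.98%). Shared peaks lay between these values, at 5.38% in replicate 1 and 5.36% in replicate 2. The median distance from a summit to the nearest gene end was 16615 bp for peaks of replicate 1 alone, 62622 bp for peaks of replicate 2 alone, and about 50 kb for shared peaks (50184.5 bp in replicate 1 and 49769.5 bp in replicate 2). Peaks inside genes but away from gene ends made up 46.3% of replicate 1 and 49.8% of replicate 2. Taken only over the peaks away from gene ends, these shares were 57.1% in replicate 1 and 51.0% in replicate 2.

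**Figure D2:**
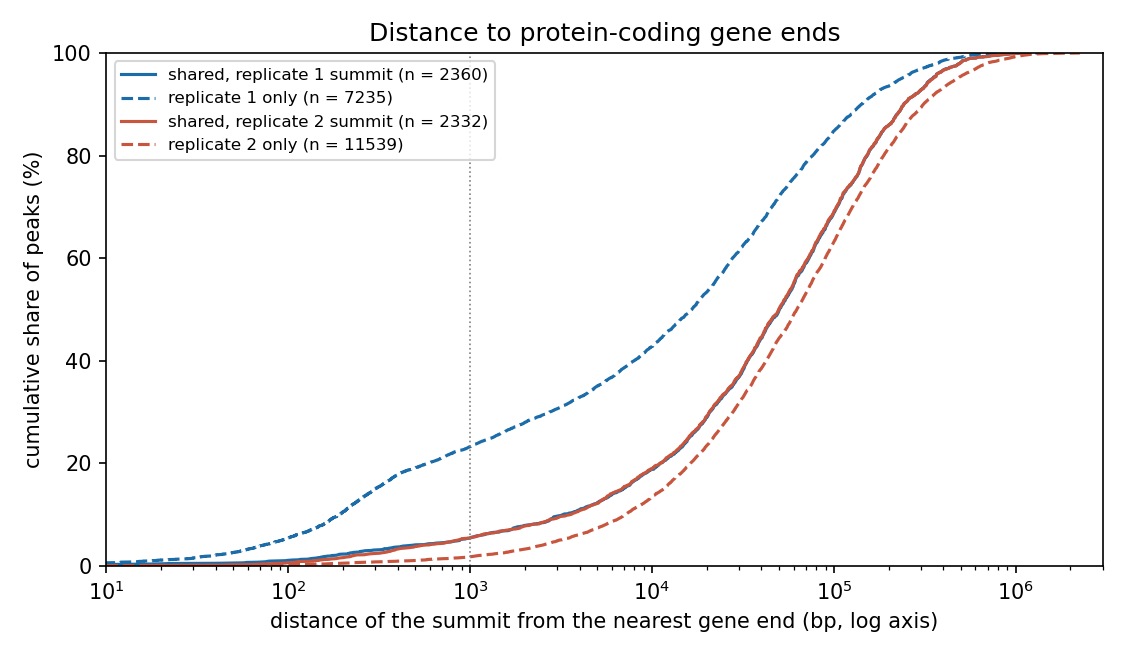
Distance from the peak summit to the nearest end of a protein-coding gene (log scale), as the cumulative share of peaks of replicate 1 alone, replicate 2 alone and the shared peaks of each library. At 1 kb, the dotted line, the curve of replicate 1 alone stands at 23.2% and that of replicate 2 alone at 1.72%, and the curves of shared peaks nearly coincide.

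Of 19974 protein-coding genes, a peak overlapped the 1 kb around an end for 2304 in replicate 1 (11.5%), for 435 in replicate 2 (2.18%) and for 200 in both (1.0%). Genes reached by replicate 1 alone numbered 2104 (10.5%) and by replicate 2 alone 235 (1.18%). The 200 genes were 8.68% of those of replicate 1 and 46.0% of those of replicate 2. At 166 of them the peaks themselves overlapped, and at 34 they were different peaks. Where the strand was known (79.2% of genes), the end reached was the start for 89.4% of 1708 genes of replicate 1 alone (87.8 to 90.8%) and for 54.5% of 178 genes of replicate 2 alone (46.9 to 62.0%).

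Among genes reached by both libraries, those with the best worse rank of fold came first. Either end of a gene counted, so these peaks need not lie at its start. The strongest end peaks of both libraries lay at the end of lower coordinate in STAU2 and of higher coordinate in CDC6. STAU2, a double-stranded RNA-binding protein of neurons, had folds of 21.6 in replicate 1 and 22.4 in replicate 2 over pile-ups of 38 fragments in replicate 1 and 48 in replicate 2. CDC6 (chromosome 17, 40287879 to 40304657), which licenses replication origins, had 14.3 in replicate 1 and 21.4 in replicate 2. HNMT, which inactivates histamine, had 10.9 in replicate 1 and 21.0 in replicate 2, and POPDC2, a membrane protein of muscle, 34.8 in replicate 1 and 11.03 in replicate 2. SNAP25, a synaptic SNARE protein, had 9.70 in replicate 1 and 10.8 in replicate 2, but at opposite ends of the gene. The rest of the first 10 were OLFML3 and the histone genes H2AC14, H2BC14, H3C6 and H4C2. Folds of these 10 genes ran from 9.51 to 34.8 in replicate 1 and from 10.2 to 22.4 in replicate 2.

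The 10 strongest genes of replicate 1 alone began with MB, the myoglobin gene (39.6), YJU2 (35.8), TCF3 (34.8) and RAB40C (32.7), and went on with CCDC137, OXLD1, ANKHD1 and its readthrough, SPATC1L and SP2 (26.7). Nearly all stood over a high control, with 21.9 to 70.0 IgG fragments at the summit except at MB (3.71). The 10 strongest of replicate 2 alone were MYCT1 (18.7), GPAM, the first enzyme of glycerolipid synthesis (17.3), YJU2B (15.1), AMOTL1, PRIMPOL and UACA (14.2 each), PLD1 (14.1), AKNAD1 (13.8), ANK2 (13.6) and MTARC1 (13.0). Their controls were 2.08 to 7.0 IgG fragments. The top genes of replicate 1 alone thus combined high pile-ups with high control, and those of replicate 2 alone had pile-ups of 22 to 53.

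Control level moved with gene ends. Over the genes reached, each taken at its peak of highest fold, the median IgG level was 25 fragments in replicate 1 and 4.24 in replicate 2. For genes of replicate 1 alone it was 26 and for genes of replicate 2 alone 3.0. Without the peaks of 30 or more IgG fragments, the share at gene ends was 13.8% in replicate 1 and 2.30% in replicate 2.

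**Figure D3:**
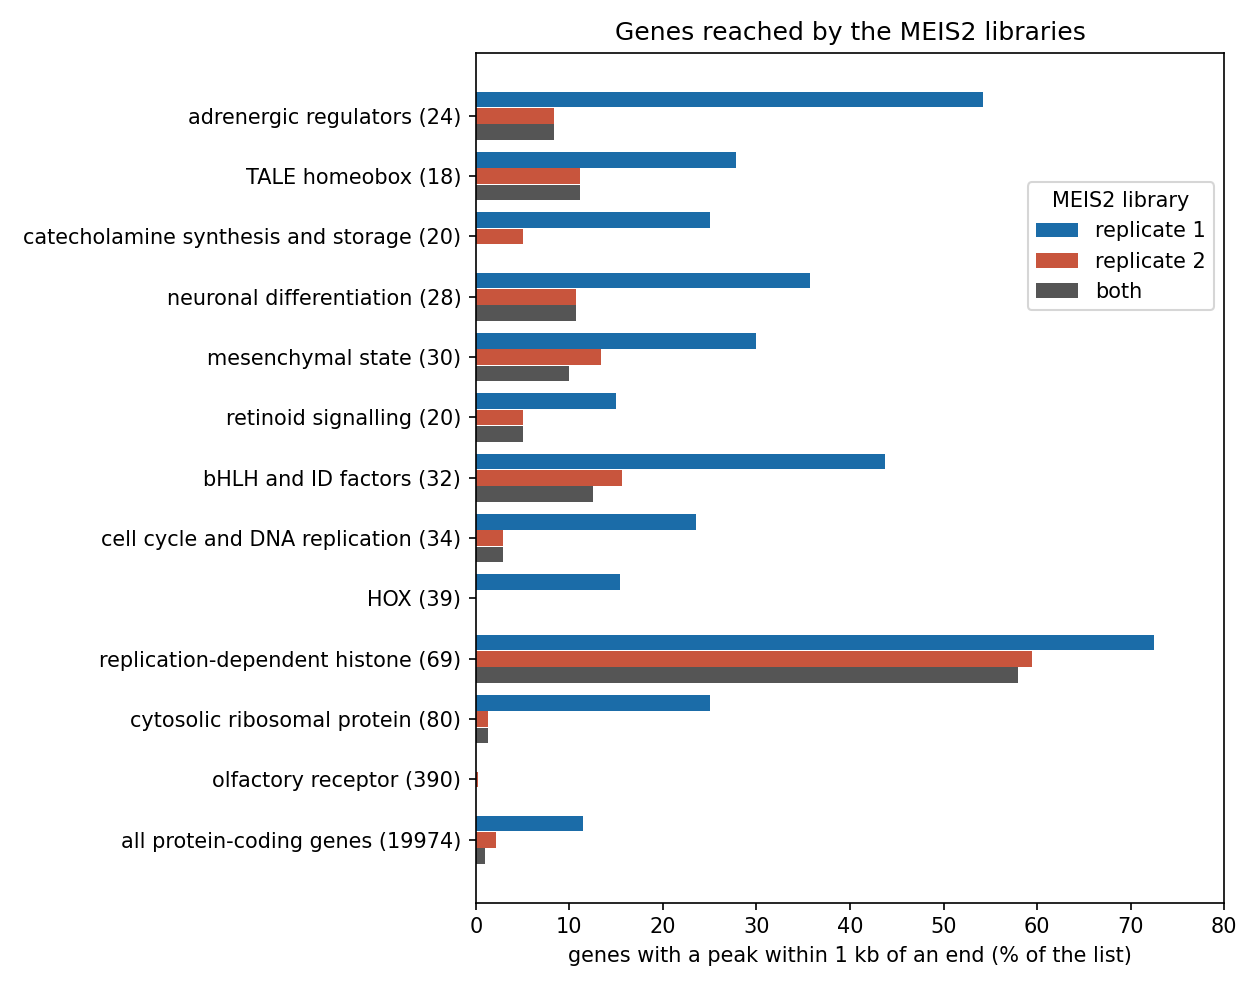
Share of each gene list (number of genes in brackets) with a peak within 1 kb of a gene end (%), for MEIS2 replicate 1, replicate 2 and both. Histone genes stand at 72.5%, 59.4% and 58.0%, against 11.5%, 2.18% and 1.0% of all protein-coding genes.

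Replication-dependent histone genes, which supply histones during S phase, had the highest share in both libraries of the 12 lists. Replicate 1 reached 50 of 69 (72.5%), replicate 2 reached 41 (59.4%) and both reached 40 (58.0%), beside 11.5%, 2.18% and 1.0% of all protein-coding genes. They made up 20.0% of the 200 genes of both, and 37 of them were among the 55 histone genes on chromosome 6. The median fold at their ends was 6.39 in replicate 1 and 5.67 in replicate 2, over a median control of 8.08 IgG fragments in replicate 1 and 5.0 in replicate 2. Highest in replicate 1 were H2BC10 (15.8 in replicate 1 and 5.67 in replicate 2), H2BC13 with H2AC13 (13.2 in replicate 1 and 7.36 in replicate 2) and H4C8 (11.3 in replicate 1 and 3.33 in replicate 2). H2AC14 and H2BC14, which lie next to each other under 1 peak of each library, had 11.2 in replicate 1 and 11.3 in replicate 2. Copies of these genes are near-identical, so the assignment of fragments among them is uncertain. Neighbouring histone genes also share peaks, so the gene counts exceed the numbers of peaks. The histone genes reached lay at 39 peaks of replicate 1 and 35 of replicate 2, and 24 shared regions touched a histone gene end. Without histone genes, both libraries reached 160 genes (0.804% of 19905).

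The adrenergic regulators are transcription factors of noradrenergic neuroblastoma. Replicate 1 reached 13 of 24 (54.2%) and replicate 2 reached 2 (8.33%), beside 11.5% and 2.18% of all protein-coding genes. Replicate 1 also reached the 2 genes of replicate 2. Those 2 were HAND2, with folds of 20.1 in replicate 1 and 3.74 in replicate 2, and ISL1, a LIM homeodomain factor, with 6.88 in replicate 1 and 4.96 in replicate 2. Those reached by replicate 1 alone included PHOX2A (18.1), SIX3 (13.9), TLX2 (7.82), TBX2 (7.47), GATA3 (7.11), HEY1 (5.78), GATA2 (4.76), SOX11 (4.41), HAND1 (3.53) and MYCN (2.94). Inside or within 50 kb of these 24 genes lay 107 summits of replicate 1 and 51 of replicate 2, and 21 genes in replicate 1 and 15 in replicate 2 had at least 1. Of all protein-coding genes, 39.3% in replicate 1 and 29.8% in replicate 2 did. GATA3 had 10 in replicate 1 and 2 in replicate 2, GATA2 had 10 in replicate 1 and 0 in replicate 2, and TBX2 had 9 in replicate 1 and 1 in replicate 2, whereas KLF7 had 3 in replicate 1 and 7 in replicate 2.

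TALE genes encode MEIS2, its relatives and its partners. Of 18, replicate 1 reached 5 (27.8%) and replicate 2 reached 2 (11.1%), beside 11.5% and 2.18% of all protein-coding genes. MEIS2 itself (chromosome 15, 36889204 to 37101311) had a fold of 17.8 in replicate 1 (rank 319, pile-up 92) and 2.97 in replicate 2 (rank 13736, pile-up 14). MEIS1 had 6.16 in replicate 1 and 5.11 in replicate 2. PKNOX1 (7.73), PBX3 (6.75) and IRX5 (4.05) were reached by replicate 1 alone, and no peak of either library lay at an end of the other 13. Inside or within 50 kb of TALE genes, 12 of 18 (66.7%) had a summit of replicate 1 and 4 of 18 (22.2%) one of replicate 2. Of all protein-coding genes, 39.3% in replicate 1 and 29.8% in replicate 2 did. More summits of replicate 1 lay at 9 TALE genes and more of replicate 2 at 3. MEIS2 had 8 summits of replicate 1 and 12 of replicate 2, and MEIS1 had 4 of replicate 1 and 6 of replicate 2, whereas PBX2 had 4 of replicate 1 and 0 of replicate 2.

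Of 32 bHLH and ID genes, 14 (43.8%) were reached by replicate 1, 5 (15.6%) by replicate 2 and 4 (12.5%) by both. Of all protein-coding genes these shares were 11.5%, 2.18% and 1.0%. TCF3 (34.8) and HES1, a NOTCH target (8.34), were among the 10 of replicate 1 alone. By its outer ends, TCF4 (3.97, pile-up 6) was the only one of replicate 2 alone. At a start inside TCF4, however, peaks of both libraries covered the promoter, with folds of 9.67 in replicate 1 and 6.67 in replicate 2. Both reached ID2, an inhibitor of bHLH factors (10.3 in replicate 1 and 4.43 in replicate 2), and ID3 (4.03 in replicate 1 and 4.31 in replicate 2), besides HAND2 and HES7. By summits inside or within 50 kb, 15 genes of the list had more of replicate 1 and 5 had more of replicate 2, with sums of 66 in replicate 1 and 51 in replicate 2. The E proteins differed among themselves: TCF3 had 4 in replicate 1 and 0 in replicate 2, TCF4 had 6 in replicate 1 and 10 in replicate 2, and TCF12 had 1 in replicate 1 and 6 in replicate 2.

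Of 28 neuronal genes, replicate 1 reached 10 (35.7%) and replicate 2 reached 3 (10.7%), beside 11.5% and 2.18% of all protein-coding genes. Replicate 1 also reached the 3 genes of replicate 2. These were SNAP25, STMN2, a microtubule regulator of growth cones (8.06 in replicate 1 and 11.9 in replicate 2), and SYT1, a calcium sensor of synaptic vesicles (4.60 in replicate 1 and 6.66 in replicate 2). Of the peaks at ends of neuronal genes, only 1 of 12 in replicate 1 and 1 of 4 in replicate 2 was shared. A gene reached by both thus need not hold a common peak. GFRA3 (12.4) was the strongest of replicate 1 alone. Of 20 catecholamine genes, 5 (25%) were reached by replicate 1, 1 (5.0%) by replicate 2 and 0 by both. Of all protein-coding genes these shares were 11.5%, 2.18% and 1.0%. Replicate 1 reached CYB561 (6.32), TH, the rate-limiting enzyme of catecholamine synthesis (5.36), DBH (4.65), SLC6A2, the noradrenaline transporter (4.4), and CHGA (4.25). Replicate 2 reached SCG2, a granin (7.93), with a peak that overlapped a replicate 1 peak lying outside the 1 kb window. Inside or within 50 kb of SCG2 lay 5 summits of replicate 1 and 4 of replicate 2. Around TH lay 9 summits of replicate 1 and 0 of replicate 2 within 50 kb.

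Of 30 mesenchymal genes, which mark the less differentiated state of neuroblastoma, replicate 1 reached 9 (30%), replicate 2 reached 4 (13.3%) and both 3 (10%). Of all protein-coding genes these shares were 11.5%, 2.18% and 1.0%. The 3 were SNAI2, a repressor of epithelial genes (5.88 in replicate 1 and 4.86 in replicate 2), VIM, an intermediate filament (4.64 in replicate 1 and 6.23 in replicate 2), and ID3. RUNX1 (7.37) was reached by replicate 2 alone. Inside or within 50 kb of its genes the list held 50 summits of replicate 1 and 53 of replicate 2, where all protein-coding genes summed to 17986 in replicate 1 and 14468 in replicate 2. More replicate 1 summits lay at 13 of the genes and more replicate 2 summits at 11. Farthest apart, and named after their values were seen, were VIM (2 in replicate 1 and 8 in replicate 2), CD44 (2 in replicate 1 and 7 in replicate 2), WWTR1 (1 in replicate 1 and 6 in replicate 2) and RUNX1 (0 in replicate 1 and 5 in replicate 2) on one side, and COL6A2 (6 in replicate 1 and 1 in replicate 2) and LGALS1 (5 in replicate 1 and 0 in replicate 2) on the other. Of 20 retinoid genes, replicate 1 reached 3 (15%) and replicate 2 reached 1 (5.0%), beside 11.5% and 2.18% of all protein-coding genes. The gene of replicate 2 was RARA, a retinoic acid receptor (6.07 in replicate 1 and 13.8 in replicate 2). The retinoid list held 50 summits of replicate 1 and 15 of replicate 2 within 50 kb.

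HOX genes, which pattern the body axis, were reached at 6 of 39 (15.4%) in replicate 1 and at 0 in replicate 2, shares near the 11.5% and 2.18% of all protein-coding genes. HOXC4, HOXC5 and HOXC6 stood under 1 peak (7.23), and HOXC9 had 5.85. Inside or within 50 kb, 17 HOX genes (43.6%) had a summit in replicate 1 and 0 in replicate 2, beside 39.3% of all protein-coding genes in replicate 1 and 29.8% in replicate 2. These 17 all lay in the HOXC and HOXD clusters, where neighbours share summits. Replicate 1 reached 20 of 80 ribosomal protein genes (25%), led by RPL12 (13.8), and replicate 2 reached 1 (1.25%), RPL35A (3.64 in replicate 1 and 4.90 in replicate 2). Of 34 cell cycle genes, replicate 1 reached 8 (23.5%) and replicate 2 only CDC6 (2.94%), the latter near the 2.18% of all protein-coding genes. Olfactory receptor genes, mostly silent outside the nose, were reached at 0 of 390 in replicate 1. Replicate 2 reached 1 of them (0.256%), OR2F2, with a fold of 4.58.

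Genes of short and long noncoding RNAs were reached by both libraries at differing rates, with a peak within 1 kb of an end counted as for protein-coding genes. Of 443 tRNA genes, replicate 1 reached 120 (27.1%), replicate 2 reached 62 (14%) and both reached 42 (9.48%). Of 154 snRNA genes, which belong to the splicing machinery, the counts for replicate 1, replicate 2 and both were 29 (18.8%), 4 (2.60%) and 4 (2.60%). In the same order, of 1911 miRNA genes they were 68 (3.56%), 24 (1.26%) and 7 (0.366%), of 1196 snoRNA genes 27 (2.26%), 18 (1.51%) and 3 (0.251%), and of 18177 lncRNA genes 1051 (5.78%), 705 (3.88%) and 184 (1.01%). Genes of tRNA and snRNA have near-identical copies and tRNA genes lie in clusters, so fragments may be shared among them and neighbours may share a peak.

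Promoter letters differed between the groups of gene starts. Promoters were the 250 bases before and 50 after a start, 22132 from 15812 genes, searched on both strands. TGACAG stood in 13 of 98 promoters under peaks of both libraries (13.3%), in 267 of 1850 under replicate 1 alone (14.4%) and in 30 of 113 under replicate 2 alone (26.5%, 18.7 to 35.7%), beside 14.8% of all. The E-box letters CANNTG, which bHLH dimers prefer, stood in 77.6% under peaks of both, 55.6% under replicate 1 alone and 77.0% under replicate 2 alone, beside 65.1% of all. CCAAT stood in 58.2% under peaks of both, 50.4% under replicate 1 alone and 49.6% under replicate 2 alone, beside 34.6% of all. Histone promoters held it in 21 of 23 under peaks of both (91.3%) and in 58 of all 68 (85.3%), and the other promoters under peaks of both in 48.0%. Median GC content was 50.7% under peaks of both, 65.7% under replicate 1 alone, 46.3% under replicate 2 alone and 62.3% in all promoters, so base composition differs between the groups and its part in the shares of letters was not tested.

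Similar numbers of gene bodies were reached by lists of unequal length (9595 peaks of replicate 1 and 13871 of replicate 2). Of 19974 protein-coding genes, a summit lay inside 2845 in replicate 1 and 2648 in replicate 2. Summits of both libraries lay inside 1164 genes (40.9% of those of replicate 1 and 44.0% of those of replicate 2). Of the 1164, 416 (35.7%) held no shared peak. The following genes were chosen after their values were seen. GSE1 held 44 summits of replicate 1 and 3 of replicate 2, and MAML2, a NOTCH coactivator, held 1 of replicate 1 and 43 of replicate 2. MSI2, an RNA-binding protein, held 33 of replicate 1 and 22 of replicate 2. SLIT3, an axon guidance ligand, held 28 of replicate 1 and 34 of replicate 2. ALK, a receptor tyrosine kinase mutated in neuroblastoma, held 14 of replicate 1 and 25 of replicate 2.

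Whole neighbourhoods leaned to one library. Of 912 windows of 1 Mb with at least 10 peaks, 139 held over 3 times as many replicate 1 peaks and 251 over 3 times as many replicate 2 peaks. Counts were not adjusted for list length (9595 and 13871 peaks), so this limit was easier to pass for replicate 2. The windows named here have the largest gaps in each direction and were chosen after the counts were seen. On chromosome 16 from 85000000, around GSE1, there were 48 peaks of replicate 1 and 4 of replicate 2, and on chromosome 10 from 79000000, around ZMIZ1, 33 of replicate 1 and 4 of replicate 2. Next came X from 40000000, around BCOR, with 27 of replicate 1 and 0 of replicate 2, and chromosome 1 from 156000000, with 32 of replicate 1 and 5 of replicate 2. On chromosome 2 from 37000000 there were 11 of replicate 1 and 58 of replicate 2. On chromosome 11 from 96000000, around MAML2, there were 2 of replicate 1 and 46 of replicate 2, and on chromosome 2 from 12000000, around TRIB2, 5 of replicate 1 and 40 of replicate 2. By chromosome the largest ratio between the libraries was on 19, which held 4.08% of replicate 1 peaks, 0.562% of replicate 2 peaks and 7.26% of protein-coding genes.

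**Figure D4:**
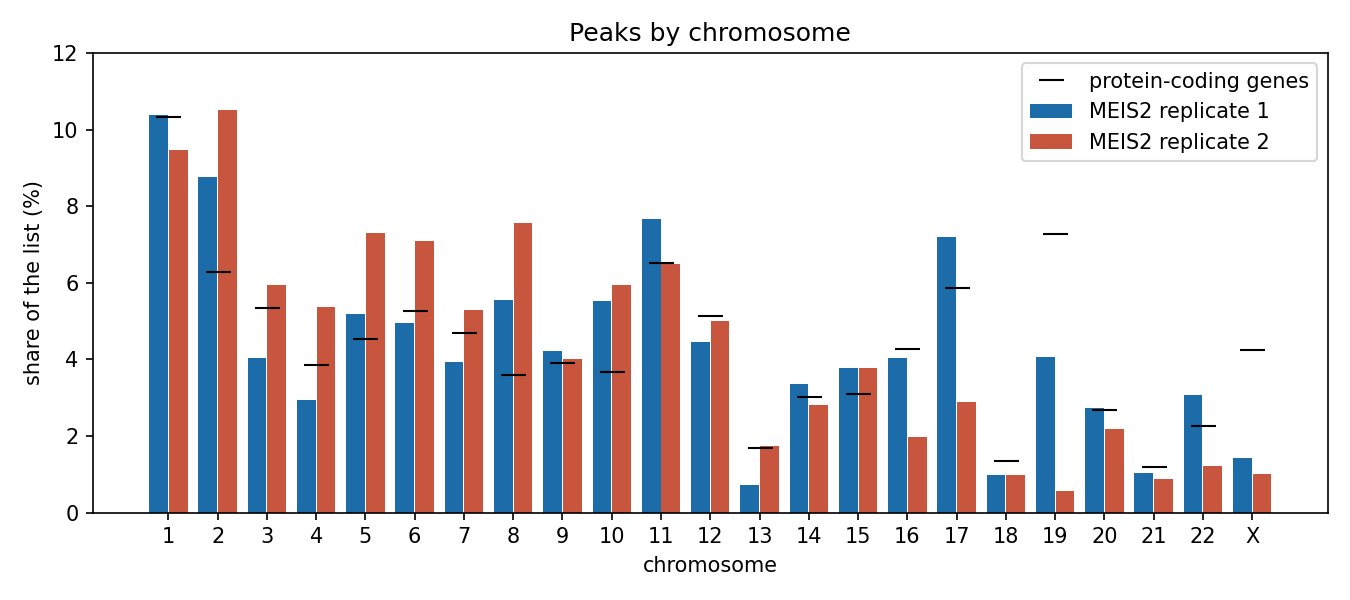
Share of each library's peaks on each chromosome (%), replicate 1 and replicate 2, beside the share of protein-coding genes. Chromosome 19 holds 4.08% of replicate 1 peaks and 0.562% of replicate 2 peaks, and chromosome 4 holds 2.93% of replicate 1 peaks and 5.37% of replicate 2 peaks.

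The amplified locus appeared in both lists. Within 500 kb of MYCN lay 70 peaks of replicate 1 and 79 of replicate 2, of which 38 of replicate 1 and 35 of replicate 2 were shared, with a median control of 501 IgG fragments in replicate 1 and 299 in replicate 2. Folds there ran from 1.26 to 6.97 in replicate 1 and from 1.37 to 9.59 in replicate 2. The median fold over the whole list was 5.90 in replicate 1 and 6.48 in replicate 2. At MYCN itself a peak reached an end in replicate 1 only (fold 2.94).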

How the data were processed

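CUT&Tag peaks of the 2 MEIS2 libraries were analysed as deposited. The submitters' processing notes name bcl2fastq 2.17, Bowtie2, MACS3 3.0.0a6 and hg38. Options and duplicate removal were not given in the sources used here. The deposited lists give the authors' score, a fold (a ratio of summit pile-up to local background) and −log10 p and −log10 q for each peak. The lowest deposited −log10 q was 2.00 in replicate 1 and 2.02 in replicate 2. Peaks were called per library. The deposited score was not used, nor was a further column of signal, the fold divided by peak width, that the authors added to some lists of the series. Peaks on other sequences were left out (3 in replicate 1 and 5 in replicate 2).

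The summit pile-up was recovered as the whole number matching fold and p within a relative tolerance of 5e-05, for 100% of peaks in both lists. It was tested on simulated data. Read totals are not in the lists, so depth is known only relative to IgG. Shares have exact binomial intervals (Clopper-Pearson) and folds exact Poisson intervals, both at 95%. Gene ends were read from RefSeq's table of genes (GRCh38.p14), with strand from the promoter table for 79.2% of genes. Python 3.11.15, numpy 2.4.6, pandas 2.3.3 and scipy 1.17.1 were used.

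Members and gene lists were chosen with earlier results of these data known. Genes were named by rank: the 10 best of both, of replicate 1 alone and of replicate 2 alone, the 5 strongest regions of each class, all TALE genes with HAND2, TCF4 and MYCN, and up to 5 of each other list per library. Alternatives were a stricter q, equal list lengths, the 5000 strongest peaks, a limit on control level, other overlaps and other gene-end windows.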

Additional observations from a re-analysis of the deposited data

How the results depend on the processing

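Replicate 1 kept the higher gene-end share under every alternative run. The share of replicate 1 peaks with a partner (24.6%) was 23.03% at a −log10 q of at least 5, 16.6% with lists of equal length, 17.5% among the 5000 strongest of each list, 27.1% without peaks of 30 or more IgG fragments, 13.2% with an overlap of 50% of both peaks and 13.9% with summits within 200 bp. For replicate 2 (16.8%) the last pair gave 9.12% and 9.65%. Shared regions (2311) numbered 856 among the 5000 strongest, 1265 with the 50% overlap and 1338 by summits. The gene-end share of replicate 1 was 17.8% at the stricter q, 11.1% among the 5000 strongest, 13.8% without high control, and 15.4% and 23.01% with windows of 500 bp and 2 kb. That of replicate 2 was 2.04% at the stricter q, 1.58% at equal length, 1.46% among the 5000 strongest, and 1.45% and 3.98% with those windows. For shared regions it was 2.96% at equal length, 1.64% among the 5000 strongest, 3.64% with the 50% overlap, 3.68% and 7.75% with those windows and 4.24% without histone genes, an alternative chosen after seeing the data. Genes of both numbered 94 at equal length and 31 among the 5000 strongest. Genes of replicate 1 alone numbered 701 among the 5000 strongest and 1276 without high control, and genes of replicate 2 alone 130 at equal length, 75 among the 5000 strongest and 370 with the 2 kb window. With 1 library left out, regions ranged from 9595 to 13871 and genes from 435 to 2304, since each is then the other library's own count. The cause of these shifts was not tested, apart from the smaller numbers of peaks that a stricter limit leaves by construction. No paired analysis was possible because each replicate is a single library of the same group. Of 64 alternative values, 38 moved and 26 stayed. The shallow pile-ups limit single peaks, above all in replicate 2.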

Other observations

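Most peaks stood alone in both libraries, and a small share lay in dense runs. With summits linked over gaps of up to 10 kb, 62.4% of replicate 1 peaks and 60.03% of replicate 2 peaks stood alone. Runs of 5 or more peaks numbered 85 in replicate 1 and 134 in replicate 2. They held 5.77% of replicate 1 peaks and 6.19% of replicate 2 peaks. The longest held 19 peaks in replicate 1 and 24 in replicate 2.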
